A study of Mus musculus with 8 samples.

Results

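Death receptor signaling was examined in mouse splenic CD8+ T cells through 8 genes, which were selected by symbol from the 22520 genes and assembled transcripts of the deposited table. All 8 were found, and each had 1 row. They encode the death ligands FasL (Fasl) and TRAIL (Tnfsf10), their receptors Fas (Fas) and DR5 (Tnfrsf10b), the initiator caspase-8 (Casp8), its inhibitor cFLIP (Cflar), and the kinases RIPK1 (Ripk1) and RIPK3 (Ripk3). The 8 bulk RNA-seq libraries fell into 2 groups of 4. In both groups, the purified CD8+ T cells were cultured for 6 days with antibodies to CD3 and CD28 and with IL-2, a persistent stimulation used to drive T cells toward exhaustion. From day 3 the medium held 40 µM DADA, diisopropylamine dichloroacetate, an inhibitor of pyruvate dehydrogenase kinase, or the same volume of the solvent DMSO. The labels enter the words control and model under genotype and name no allele, and the study describes the donors for this culture as wild-type mice, without tying a strain or number of animals to these libraries. Its methods give an age of 6 to 8 weeks for each kind of mouse they list. The labels call the replicates biological without saying whether each came from its own mouse or culture, so the p-values measure the spread between these libraries.

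Death ligands of the TNF family bring their receptors together on the target cell, and the adaptor FADD then recruits procaspase-8. Paired procaspase-8 molecules activate each other and cut the executioner caspases, while cFLIP, which resembles caspase-8 but lacks its protease activity, holds this step back. Where caspase-8 is blocked, RIPK1 and RIPK3 can assemble instead and phosphorylate MLKL, which ends in necroptosis. Activated CD8+ T cells use FasL and TRAIL to kill target cells, and they carry Fas and are themselves removed through it.

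Values are FPKM, in which the fragments of a gene are divided by its transcript length and by library depth, so levels of different genes can be set side by side. They summed to between 450473 and 456939 per library with DMSO and between 438299 and 449480 with DADA, so the groups did not overlap. FPKM hold no read counts, and the steps between low values put the depth at about 13700000 to 16200000 mapped fragments per library with DMSO and 15100000 to 18700000 with DADA. The CD8+ T cell markers were abundant, with a sum over the 5 listed markers (Cd3d, Cd3e, Cd3g, Cd8a and Cd8b1) of 674 to 680 FPKM with DMSO and 776 to 805 FPKM with DADA. That list was therefore higher with DADA, and its part in the results below was not tested. Markers of other cells were low. The 6 myeloid markers summed to at most 0.295 FPKM, the 3 NK cell markers to at most 0.346 FPKM and the 4 erythroid markers to at most 0.258 FPKM, with Csf1r and Adgre1 at 0 in all libraries. Of the B cell markers, Ms4a1 reached 0.0288 FPKM and Cd79a 0.190 FPKM, and Cd79b lay between 2.18 and 3.47 FPKM. Cd4 was at most 0.411 FPKM, although Zbtb7b, also on the CD4 list, was at 14.8 to 16.7 FPKM.

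Differences between the groups were fitted with limma on log2(FPKM + 1) over 10666 genes, each with 1 FPKM or more in at least 4 libraries, and a call is a Benjamini-Hochberg adjusted p-value under 0.05 over all of them. Of these genes, 66.2% were called, 30.9% higher and 35.3% lower with DADA. All 8 death receptor genes passed the filter. In DADA-treated cells, 5 were called higher (Tnfsf10, Cflar, Casp8, Ripk3 and Ripk1), 1 was called lower (Tnfrsf10b), and Fas and Fasl were not called. The groups did not overlap for the same 6 genes, a pattern seen in 60.6% of all genes tested, with DADA higher in 28.4% and lower in 32.2%. The share of 6 in 8 called lies near the background of 66.2%, so the number of calls by itself says nothing particular about these genes. Their median log2 fold change was 0.38, against -0.02 over all genes tested. In bulk RNA, fewer cells of a type and less RNA per cell cannot be told apart.

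**Figure D1:**
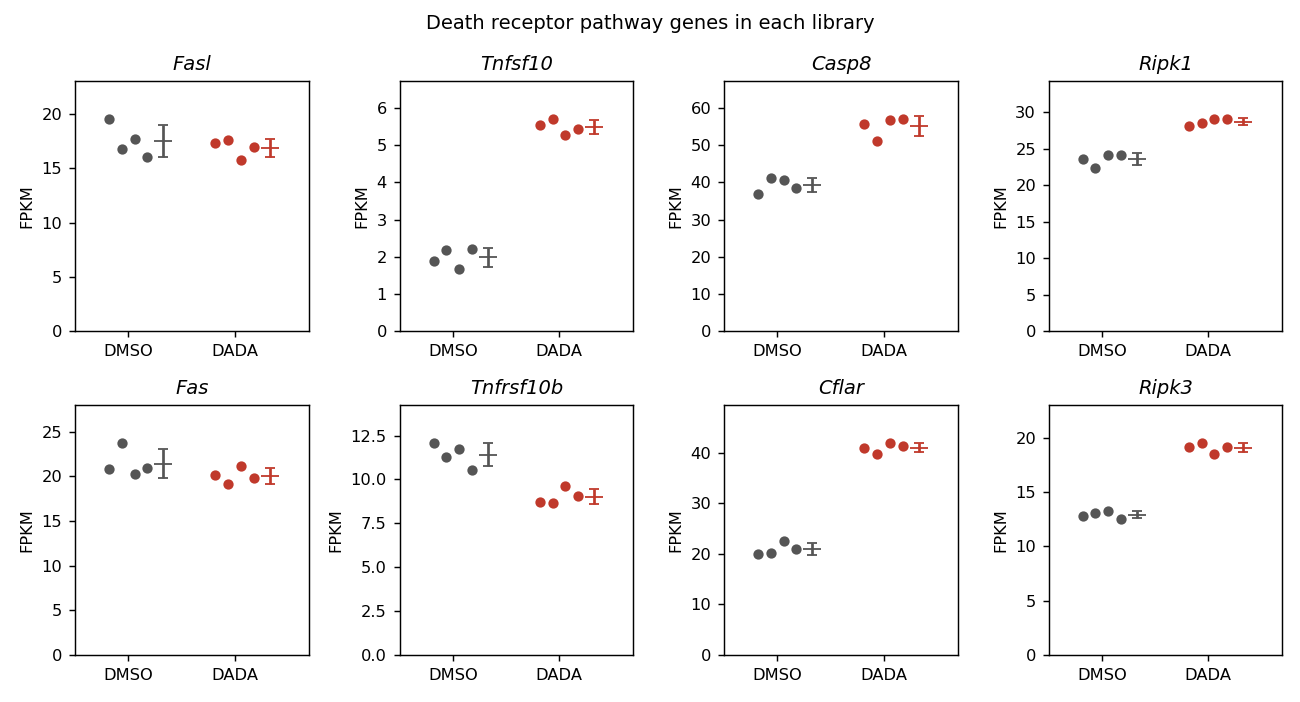
FPKM (y axis, from 0) of the 8 genes in each of the 4 DMSO and 4 DADA libraries; each point is 1 library, and the bar beside the points is the mean ± SD. The groups overlap for Fasl and Fas, DADA lies lower for Tnfrsf10b, and DADA lies higher for the other 5 genes.

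The start regions of Tnfsf10 and Cflar, the 2 genes with the largest increase of the 8, and of Casp8, the protease that cFLIP inhibits, are printed first, because they moved in the same direction and the region before each start is where transcription factors of the interferon and NF-kB families commonly bind. Fas is shown beside them as a receptor that was not called. The windows are from RefSeq on build GRCm38.p6, 250 bases before and 50 after an annotated start, and 7 of the 8 genes had at least 1 window, Ripk1 having 2. The deposited files give no coordinates, and the submitters' processing notes name GRCm39, so these positions belong to the RefSeq table alone. Capitals mark each match, on either strand, to the interferon regulatory factor (IRF) core AANNGAAA, which reads TTTCNNTT on the other strand.
Tnfsf10, GRCm38.p6, chr3:27316827-27317126, plus strand: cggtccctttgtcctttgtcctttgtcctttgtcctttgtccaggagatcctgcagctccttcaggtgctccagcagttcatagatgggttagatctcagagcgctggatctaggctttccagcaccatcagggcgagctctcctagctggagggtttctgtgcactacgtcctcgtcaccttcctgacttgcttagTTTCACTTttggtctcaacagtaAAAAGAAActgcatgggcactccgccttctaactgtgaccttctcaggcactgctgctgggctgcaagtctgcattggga
Casp8, GRCm38.p6, chr1:58802252-58802551, plus strand: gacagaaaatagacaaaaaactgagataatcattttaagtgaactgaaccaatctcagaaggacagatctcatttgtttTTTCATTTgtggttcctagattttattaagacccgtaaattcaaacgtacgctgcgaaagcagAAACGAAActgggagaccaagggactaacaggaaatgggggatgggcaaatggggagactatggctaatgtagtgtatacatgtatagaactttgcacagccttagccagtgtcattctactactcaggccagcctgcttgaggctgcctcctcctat
Cflar, GRCm38.p6, chr1:58711241-58711540, plus strand: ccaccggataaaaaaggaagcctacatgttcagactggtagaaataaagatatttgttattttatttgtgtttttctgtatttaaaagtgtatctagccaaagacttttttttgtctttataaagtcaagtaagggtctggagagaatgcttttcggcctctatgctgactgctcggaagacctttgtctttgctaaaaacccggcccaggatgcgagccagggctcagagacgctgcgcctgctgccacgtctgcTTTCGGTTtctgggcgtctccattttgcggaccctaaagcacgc
Fas, GRCm38.p6, chr19:34290409-34290708, plus strand: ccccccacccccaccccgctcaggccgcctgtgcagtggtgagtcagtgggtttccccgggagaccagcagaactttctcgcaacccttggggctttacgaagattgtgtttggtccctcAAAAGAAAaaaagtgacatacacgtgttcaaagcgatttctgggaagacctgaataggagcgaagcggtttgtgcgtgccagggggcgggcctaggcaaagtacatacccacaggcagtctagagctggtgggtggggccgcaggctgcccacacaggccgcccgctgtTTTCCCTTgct

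The IRF core occurred in 5 of the 8 windows of these genes, and in 23.9% of all 32851 RefSeq windows of this length (17.9% of the 10477 windows of genes tested here). Tnfsf10 held 2 matches, whose first bases lie 53 and 30 bases before the start. Casp8 held 2, beginning at positions -171 and -108 from the start, and Cflar held 1, which begins at base 7 after it. The second Ripk1 window held 1 match, beginning 3 bases before the start. Fas also held 2, whereas Fasl, Ripk3 and the first Ripk1 window held none. The letters thus occurred in genes that rose and in a gene that was not called. Tnfrsf10b, the only one of the 8 genes called lower, had no window and was not searched. The interferon-gamma activated site GAS (TTCNNNGAA, the same on both strands, in 8.3% of all windows) occurred once in Fas and at 2 places in the second Ripk1 window, the latter of which shares 1 base with the IRF core. The NF-kB letters GGG, any 2 bases, then TTTCC (1.63% of all windows) on either strand, occurred in none of the 8 windows. A p53 half-site, searched on both strands (8.36% of all windows), was found in Fasl alone. The spelling of these motifs was chosen with the sequences in view, and a match describes letters, not binding. For comparison, the interferon-induced genes Isg15 and Irf7 were higher with DADA by 5.16 and 3.83 on the log2 scale, while Irf1 was lower, at -0.18 (limma, adjusted p between 2.68e-12 and 2.96e-04).

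Of the ligands, TRAIL rose with DADA and FasL was not called. Tnfsf10 (ENSMUSG00000039304, chromosome 3) was the least abundant of the 8 genes in both groups, at 1.88, 2.19, 1.66 and 2.21 FPKM in DMSO replicates 1 to 4 and at 5.55, 5.70, 5.28 and 5.42 FPKM in DADA replicates 1 to 4. Every DADA library lay above every DMSO library. The means were 1.98 ± 0.262 FPKM with DMSO and 5.49 ± 0.179 FPKM with DADA (SD, n = 4 each), a ratio of 2.76, and the log2 fold change was 1.12 (SE 0.0669, adjusted p = 2.30e-07 by limma). Only 2.89% of the genes tested had a larger increase. At so low a level the pseudocount of 1 understates the change, which was 1.43 with a pseudocount of 0.1.

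Fasl (ENSMUSG00000000817, chromosome 1), the ligand that cytotoxic T cells present to Fas-bearing targets, was the more abundant ligand, with 19.5, 16.7, 17.7 and 16.03 FPKM in the DMSO libraries and 17.4, 17.6, 15.7 and 16.9 FPKM in the DADA libraries. The groups overlapped, and DMSO replicate 1 was the highest library. The log2 fold change was -0.05 (95% interval -0.18 to 0.09, adjusted p = 0.511 by limma), and without DMSO replicate 1 it changed sign to 0.0050.

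Of the receptors, DR5 fell and Fas was not called. Tnfrsf10b (ENSMUSG00000022074, chromosome 14), the death receptor for TRAIL in mice, measured 12.1, 11.3, 11.7 and 10.5 FPKM in the DMSO libraries and 8.74, 8.66, 9.60 and 9.07 FPKM in the DADA libraries. All 4 DADA libraries lay below all 4 DMSO libraries. The means of 11.4 ± 0.662 and 9.02 ± 0.426 FPKM (SD, n = 4 each) gave a ratio of 0.791 and a log2 fold change of -0.31 (SE 0.0489, adjusted p = 3.03e-04 by limma). The ligand Tnfsf10 and its receptor therefore moved in opposite directions.

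Fas (ENSMUSG00000024778, chromosome 19) measured 20.8, 23.7, 20.2 and 21.0 FPKM in the DMSO libraries and 20.2, 19.1, 21.2 and 19.8 FPKM in the DADA libraries. DMSO replicate 2 was the highest library, and the groups overlapped. The log2 fold change was -0.09 (95% interval -0.20 to 0.03, adjusted p = 0.153 by limma), and -0.04 without DMSO replicate 2.

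Both Casp8 and its inhibitor Cflar rose, the inhibitor further than the protease. Cflar (ENSMUSG00000026031, chromosome 1) measured 20.01, 20.1, 22.5 and 20.9 FPKM in the DMSO libraries and 40.9, 39.8, 41.9 and 41.3 FPKM in the DADA libraries. The DADA libraries lay in a narrow range, with a coefficient of variation of 2.24%, far above every DMSO library. The means were 20.9 ± 1.176 and 41.0 ± 0.919 FPKM (SD, n = 4 each), a ratio of 1.96, with a log2 fold change of 0.94 (SE 0.0391, adjusted p = 1.82e-08 by limma). A larger increase was seen in 3.98% of the genes tested. GENCODE M21 lists 13 transcripts for Cflar, and the gene-level value does not separate its long and short protein forms.

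Casp8 (ENSMUSG00000026029, chromosome 1) was the most abundant of the 8 genes in both groups, with 37.0, 41.1, 40.6 and 38.5 FPKM in the DMSO libraries and 55.7, 51.2, 56.7 and 57.0 FPKM in the DADA libraries. DADA replicate 2 was the lowest of its group and still lay above all DMSO libraries. The means of 39.3 ± 1.90 and 55.1 ± 2.70 FPKM (SD, n = 4 each) gave a ratio of 1.403 and a log2 fold change of 0.48 (SE 0.0435, adjusted p = 5.43e-06 by limma).

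Both RIP kinases rose with DADA, RIPK3 further than RIPK1. Ripk3 (ENSMUSG00000022221, chromosome 14), the kinase that phosphorylates MLKL, measured 12.8, 13.1, 13.3 and 12.6 FPKM in the DMSO libraries and 19.2, 19.5, 18.5 and 19.1 FPKM in the DADA libraries. The groups lay apart, with a coefficient of variation of 2.44% and 2.19% within them. The means were 12.9 ± 0.315 and 19.1 ± 0.419 FPKM (SD, n = 4 each), a ratio of 1.48, and the log2 fold change was 0.53 (SE 0.0312, adjusted p = 2.15e-07 by limma).

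Ripk1 (ENSMUSG00000021408, chromosome 13), which serves both cell death and NF-kB signaling downstream of the TNF receptor, measured 23.5, 22.3, 24.1 and 24.1 FPKM in the DMSO libraries and 28.1, 28.5, 29.0 and 29.0 FPKM in the DADA libraries. Its groups did not overlap either, but the step was smaller. The means of 23.5 ± 0.825 and 28.7 ± 0.460 FPKM (SD, n = 4 each) gave a ratio of 1.22 and a log2 fold change of 0.28 (SE 0.0309, adjusted p = 2.51e-05 by limma). In GENCODE M21, exons of Ripk1 overlap those of Serpinb6a on the opposite strand, which rose from 57.4 ± 1.91 to 62.8 ± 1.39 FPKM, or by 0.13 on the log2 scale (adjusted p = 0.00320 by limma). Whether the counting used strand is not given in the sources used here, so a part of the reads could belong to either gene.

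The order of the 8 genes by level changed with the treatment. With DMSO, Casp8 was highest and was followed by Ripk1, Fas and Cflar, whose neighbors in this order overlapped in range, then by Fasl, Ripk3, Tnfrsf10b and Tnfsf10, each apart from the next. With DADA, Cflar stood in second place, apart from Casp8 above it (51.2 to 57.0 FPKM) and Ripk1 below it (28.1 to 29.0 FPKM). Fas and Ripk3 overlapped next in the order, Ripk3 now lay above Fasl, and Tnfrsf10b and Tnfsf10 again came last.

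Ratios within a library do not depend on its scaling, and 4 of them were compared between the groups by an exact permutation test, two-sided, with 70 assignments, whose smallest possible p is 0.0286. The Tnfsf10 to Tnfrsf10b ratio was 0.156, 0.195, 0.142 and 0.209 with DMSO and 0.635, 0.658, 0.550 and 0.598 with DADA. The ligand thus stayed below its receptor in every library, and the geometric mean of the ratio was 3.52-fold higher with DADA (exact permutation test, p = 0.0286, 0.0381 adjusted over the 4 ratios). Every DADA library already lay above every DMSO library for Tnfsf10 and below for Tnfrsf10b. The groups therefore had to separate in this ratio, and its p-value follows from those differences and adds no support to them. The Cflar to Casp8 ratio was 0.541, 0.489, 0.555 and 0.544 with DMSO and 0.736, 0.777, 0.740 and 0.725 with DADA. Transcripts of the inhibitor remained fewer than those of the caspase, and the ratio was 1.401-fold higher with DADA (exact permutation test, p = 0.0286, adjusted 0.0381).

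The Ripk3 to Ripk1 ratio was 0.543, 0.586, 0.549 and 0.522 with DMSO and 0.684, 0.684, 0.639 and 0.660 with DADA, 1.21-fold higher with DADA (exact permutation test, p = 0.0286, adjusted 0.0381). For each of these 3 ratios, no DADA library overlapped with a DMSO library. The Fasl to Fas ratio was 0.939, 0.705, 0.876 and 0.764 with DMSO and 0.859, 0.920, 0.741 and 0.855 with DADA. Its groups overlapped, with a log2 difference of 0.04 against an SD of 0.187 within DMSO (exact permutation test, p = 0.743), and its sign turned without DMSO replicate 2 (-0.03).

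**Figure D2:**
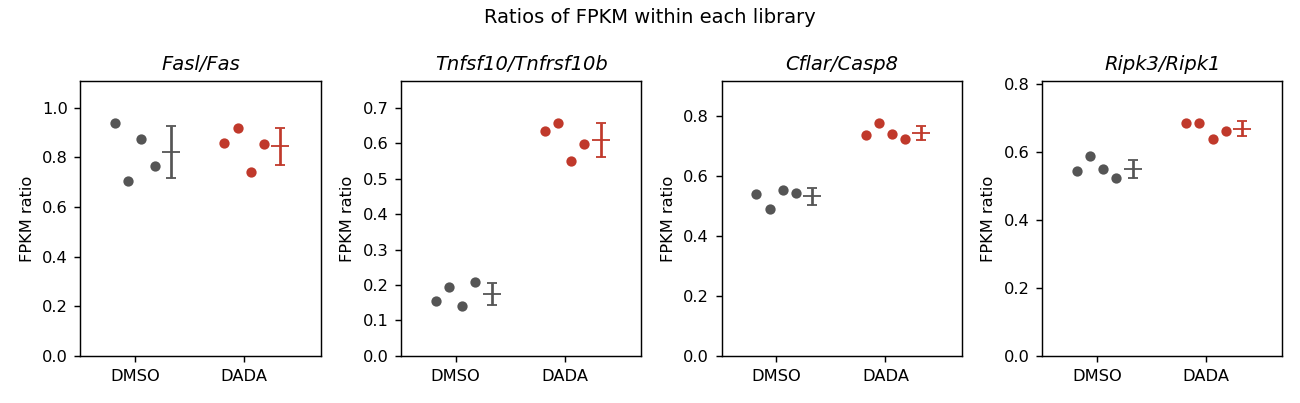
Ratio of FPKM values within each library (y axis, from 0) for 4 gene pairs; each point is 1 library, and the bar beside the points is the mean ± SD of 4 libraries. The DADA libraries lie above all DMSO libraries for Tnfsf10/Tnfrsf10b, Cflar/Casp8 and Ripk3/Ripk1, and overlap with them for Fasl/Fas.

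The rest of the pathway was read from a list of 79 further genes in 9 groups by role. All 79 are in the table, and 68 passed the filter, of which 29 were called higher and 21 lower with DADA. This is 73.5% of the 68, against 66.2% of all genes tested, and the median log2 fold change of the list was 0.02. In each group, up to 2 called genes with the largest change in each direction are named. The groups are small, and their counts are to be read against 30.9% higher and 35.3% lower over all genes tested.

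Among the 4 other ligands tested, 3 were higher and 1 lower, too few to set apart from the 66.2% called over all genes tested. Tnfsf14, which encodes LIGHT, rose from 4.67 ± 0.355 to 11.5 ± 1.34 FPKM (SD, n = 4 each, log2 fold change 1.14), and Ltb, the lymphotoxin beta chain, from 52.6 ± 4.54 to 115 ± 5.16 FPKM (1.12). Lta, the lymphotoxin alpha chain, fell from 95.9 ± 2.51 to 83.2 ± 2.64 FPKM (-0.20). Tnf itself, named after its values were seen, rose from 24.5 ± 1.17 to 34.3 ± 1.68 FPKM (0.47; limma, adjusted p between 7.76e-08 and 1.58e-04 for the 4 genes).

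The receptors for TNF were slightly higher, with log2 fold changes of 0.22 for Tnfrsf1a, which carries a death domain, and 0.16 for Tnfrsf1b, which does not. Tnfrsf21, the death domain receptor DR6, fell from 3.22 ± 0.174 to 1.37 ± 0.1252 FPKM (-0.83), and 2 of the 5 receptors tested were not called. Of the TRAIL decoy group, 2 of 3 tested were higher. Tnfrsf23, a decoy receptor that binds TRAIL without a death domain, lay between 0.271 and 0.403 FPKM with DMSO and between 1.73 and 1.98 FPKM with DADA (log2 fold change 1.11, and 2.18 with a pseudocount of 0.1). It passed the filter only through the DADA libraries, so its call is not read as support for a difference. Tnfrsf26, a related receptor of the same gene cluster, rose from 4.17 ± 0.191 to 8.60 ± 0.457 FPKM (0.89; limma, adjusted p between 1.20e-07 and 5.48e-04 for these 5 genes). Tnfrsf22, the other TRAIL decoy receptor, was not called (0.08, adjusted p = 0.244 by limma). These decoy genes resemble each other in sequence, and the authors' assignment could split fragments between them. In level, DR5 was more abundant than Tnfrsf23 with DADA, at 8.66 to 9.60 FPKM against 1.73 to 1.98 FPKM. Tnfrsf22, at 3.36 to 3.90 FPKM with DADA, was also below DR5, but Tnfrsf26, at 8.24 to 9.26 FPKM, overlapped with it.

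FADD, the adaptor that joins both Fas and DR5 to caspase-8, was low and was not called. Fadd, named after its values were seen, measured 2.92 ± 0.206 FPKM with DMSO against 2.66 ± 0.145 FPKM with DADA (SD, n = 4 each), with a log2 fold change of -0.10 (adjusted p = 0.157 by limma), and of the alternatives run, it was called lower only with quantile normalization (-0.21, adjusted p = 0.00862). Of the 9 adaptors tested, 5 were higher and 1 lower. Daxx, first described as a Fas-binding protein and known mainly as a histone chaperone, rose from 21.5 ± 0.653 to 42.3 ± 1.36 FPKM (0.95), and Traf1, an adaptor of TNF receptors, from 86.0 ± 1.59 to 164 ± 1.76 FPKM (0.92). Faf1, a Fas-associated factor, fell by 0.14 on the log2 scale.

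The list of ubiquitin and checkpoint factors, many of which act on RIPK1 or on NF-kB signaling, went both ways, with 10 of 20 higher and 4 lower. Tnfaip3, the ubiquitin-editing enzyme A20, rose from 25.8 ± 1.04 to 53.2 ± 0.850 FPKM (1.01), and Birc3, the ubiquitin ligase cIAP2, from 30.3 ± 1.501 to 45.4 ± 1.37 FPKM (0.57). Birc5, which encodes survivin and acts mainly in mitosis, fell from 77.0 ± 5.73 to 52.4 ± 1.176 FPKM (-0.54), and Map3k7, the kinase TAK1, from 30.1 ± 0.352 to 23.5 ± 0.690 FPKM (-0.35; limma, adjusted p between 2.08e-09 and 4.31e-06 for the 4 genes).

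All 5 further necroptosis genes were called, 3 higher and 2 lower, where 66.2% of all genes tested were called. With so few genes, this count says nothing particular about necroptosis genes. Zbp1, a nucleic acid sensor that binds RIPK3, had the largest log2 fold change of the list on the log2(FPKM + 1) scale, although Tnfrsf23 exceeded it with a pseudocount of 0.1, and went from 16.9, 13.6, 16.3 and 16.6 FPKM in the DMSO libraries to 49.8, 54.7, 50.2 and 51.2 FPKM in the DADA libraries (log2 fold change 1.65, adjusted p = 9.54e-09 by limma). Ticam1, which encodes the RIPK3-binding adaptor TRIF, rose from 3.83 ± 0.161 to 8.05 ± 0.676 FPKM (0.90). Mlkl, the executioner of necroptosis and named after its values were seen, rose less, from 13.4 ± 0.708 to 15.99 ± 0.592 FPKM (0.24, adjusted p = 7.49e-04 by limma). The phosphatase genes Pgam5 and Ppm1b fell by 0.21 and 0.16 on the log2 scale.

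The group of initiator and executioner caspases, which also holds factors released from mitochondria, moved in both directions. Casp6, an executioner caspase, measured 6.96 to 7.92 FPKM in the DMSO libraries and 16.3 to 17.1 FPKM with DADA (log2 fold change 1.06, adjusted p = 9.85e-09 by limma), so its groups lay apart. Casp9, the initiator of the mitochondrial pathway, rose from 2.23 ± 0.0644 to 2.94 ± 0.269 FPKM (0.28), and Htra2, a mitochondrial protease, fell from 44.8 ± 2.202 to 28.1 ± 0.592 FPKM (-0.66). In this group of 10 genes, 4 were higher and 5 lower, so that 90% were called, against 66.2% of all genes tested.

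**Figure D3:**
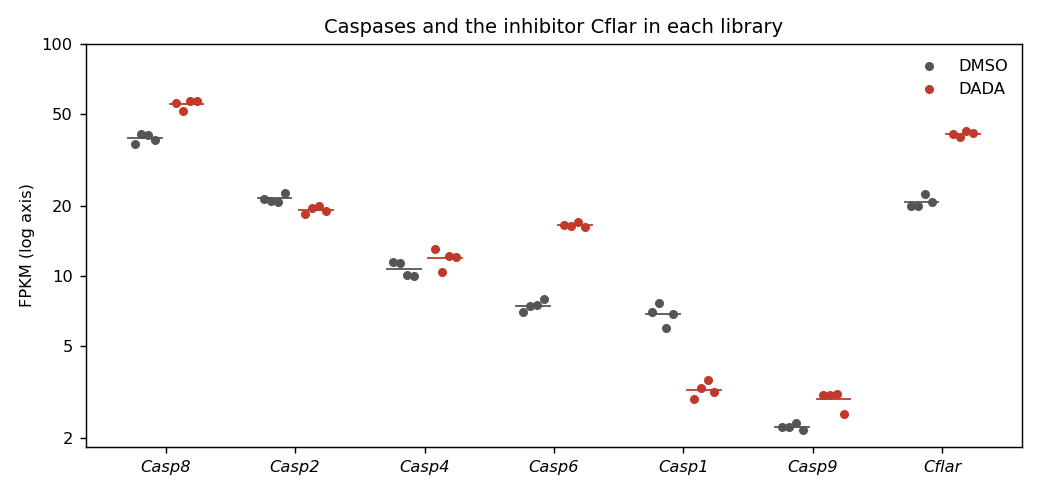
FPKM (log axis) of 6 caspases and of Cflar in each of the 4 DMSO and 4 DADA libraries; each point is 1 library and each short line the mean. Casp6, Casp8 and Cflar lie higher with DADA, Casp1 lies lower, and Casp4 overlaps between the groups.

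The inflammatory caspases and pyroptosis genes held no called increase among the 5 tested, with 3 lower and 2 not called, and 3 more lay below the filter. Over all genes tested, 30.9% were higher and 35.3% lower, so the lack of an increase among so few genes says little about the group. Casp1, the caspase of the inflammasome, measured 5.93 to 7.63 FPKM in the DMSO libraries and 2.93 to 3.54 FPKM with DADA (log2 fold change -0.89, adjusted p = 2.35e-06 by limma), and Gsdmd, the pore-forming gasdermin it cuts, fell from 17.1 ± 1.398 to 14.3 ± 0.454 FPKM (-0.24, adjusted p = 0.00336). Of those below the filter, Casp12 and Gsdmc were listed at 0 in every library. Nlrp3, also below it, was very low but higher with DADA. It lay between 0.0234 and 0.0579 FPKM with DMSO and between 0.115 and 0.209 FPKM with DADA. Of 7 caspase substrates tested, 4 were lower and none was higher, so that 57.1% were called, against 66.2% of all genes tested. Parp1, a DNA repair enzyme, fell from 59.5 ± 1.406 to 40.5 ± 0.781 FPKM (-0.54), and Lmnb1, a nuclear lamin, from 81.2 ± 3.97 to 57.2 ± 1.77 FPKM (-0.50; adjusted p = 4.84e-08 and 1.29e-06 by limma).

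**Figure D4:**
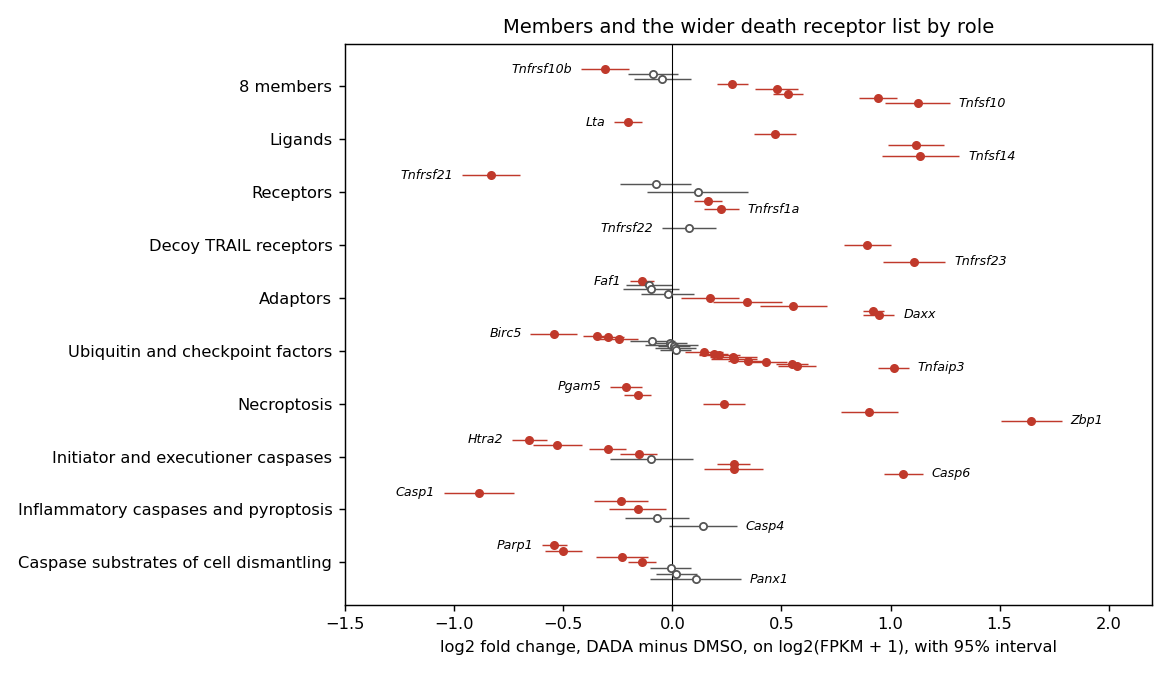
Log2 fold change (x axis, DADA minus DMSO, on the log2(FPKM + 1) scale) with its 95% interval for the 8 genes and 66 of the 68 tested genes of the wider list, in rows by role; each point is 1 gene, filled where the adjusted p-value was under 0.05 and open otherwise, and the lowest and highest gene plotted in each row is named. Of the genes plotted, Zbp1 lies highest at 1.65 and Casp1 lowest at -0.89.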

How the data were processed

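Bulk RNA-seq of 4 DMSO and 4 DADA libraries was used, grouped by sample title. The authors deposited 1 FPKM value per gene and library. The submitters' processing notes name HISAT2 2.0.5, StringTie 1.3.3, SAMtools 0.1.18, Picard 1.41, CASAVA 1.8.2 and FastQC 0.11.9 and the builds GRCm39 and GRCh38, without their roles or the counting settings. The FPKM were used as deposited.

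Genes with at least 1 FPKM in at least 4 libraries were fitted as log2(FPKM + 1) with limma 3.58.1 in R 4.3.3 (eBayes with trend, Benjamini-Hochberg adjustment), after the fit was tested on simulated data. Fold changes are on that scale and understate low genes. Depth was estimated from low values of 4431 genes with 1 GENCODE M21 transcript. Of these values, 36.4% to 41.9% lay within 0.1 of a whole fragment, where 20% would if spread evenly, so no count test was run. The depth was chosen to bring these same values close to whole fragments. The share after such a search would thus lie above 20% by itself, by an amount that was not tested. Ratios were tested with scipy 1.17.1, and figures drawn with matplotlib 3.10.9.

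The 8 genes, the wider list and the markers were chosen with earlier results of these data known. In each role group of the wider list, at most 2 called genes per direction with the largest change are named. Tnf, Fadd and Mlkl, named beyond that, are marked. Tnfrsf22, Casp4, Casp12, Gsdmc and Nlrp3 are named outside that rule as well, and the figures label further genes. A few genes of the lists are counted but not reported here by name. Like profiles were sought by the root-mean-square difference of centred log2 values, among genes whose mean reached 5 FPKM. The alternatives were a pseudocount of 0.1, no filter, a mean of at least 5 FPKM, TPM, median-ratio and quantile scaling, no trend, a replicate block and each library left out. A planned comparison of protein sequences was not made here.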

Additional observations from a re-analysis of the deposited data

How the results depend on the processing

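The 6 calls among the 8 genes kept their direction and their call under all alternatives run, and Fas and Fasl were called under none (adjusted p between 0.0922 and 0.398 for Fas and between 0.223 and 0.934 for Fasl). Leaving out single libraries, Fasl ranged from -0.0843 to 0.00499 on the log2 scale. A mean of at least 5 FPKM left Tnfsf10 untested. Numbers of called genes, overall and in the wider list, stayed within 1.5 times. Rescaling each library to TPM moved the calls from 46.7% to 51.6% higher, and no scaling moved the median of all genes by over 0.1. With the replicate number as a block, 6995 genes were called against 7064, and no call among the 8 genes changed. Whether same-numbered libraries share a mouse or culture is not given in the sources used here. Their deviations from the group means correlated between -0.12 and 0.0953, against -0.267 to 0.134 for differently numbered libraries. Not every library correlated best with its own number, but correlations this weak cannot decide whether the libraries are paired. Paired by number, the log2 differences of the ratios were the same (1.81 for Tnfsf10/Tnfrsf10b, 0.486 for Cflar/Casp8 and 0.278 for Ripk3/Ripk1), but a sign-flip test of 4 pairs cannot go below an exact p of 0.125. Without 1 library the exact permutation test cannot go below 0.0571, and these differences ranged from 1.72 to 1.91, from 0.446 to 0.507 and from 0.253 to 0.308. That of Fasl/Fas ranged from -0.0256 to 0.112. The depth is an estimate, so counting error could not be given for Tnfsf10, the lowest of the 8 genes.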

Other observations

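Cflar and Casp8 are next to each other on chromosome 1 in RefSeq, with no other protein-coding gene between them, and both were higher with DADA. Of the 3 protein-coding genes listed on each side, those tested were not called higher. Ndufb3 measured 30.1 ± 1.63 FPKM in the DMSO group and 29.2 ± 0.959 FPKM in the DADA group (SD, n = 4 each, adjusted p = 0.392 by limma), and Trak2 at 12.4 ± 0.210 and 12.3 ± 0.394 FPKM (adjusted p = 0.772). Stradb fell from 5.98 ± 0.375 to 4.80 ± 0.626 FPKM (log2 fold change -0.27, adjusted p = 0.0123 by limma), and Flacc1 stayed below 1 FPKM.

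The genes whose centred log2 profiles over the 8 libraries lay closest to those of the called genes were Clcn3 and Uba7 for Cflar (root-mean-square differences 0.0361 and 0.0450), Utrn and Acadvl for Casp8 (0.0326 and 0.0328), Calr and Evl for Ripk3 (0.0190 and 0.0250), Serinc1 and Avl9 for Ripk1 (0.0103 and 0.0227), Tubb6 and Slc37a4 for Tnfsf10 (0.0528 and 0.0596), and Mib2 and Paxip1 for Tnfrsf10b (0.0188 and 0.0321). This distance takes in the difference between the groups, so it favors genes with a like fold change. Such genes are easily found where 66.2% of all genes tested were called, and shared regulation was not tested.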
